A study of Mus musculus with 9 samples.

Results

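The genes described here are those of the 2 cardiac natriuretic peptides, the 2 proteases that cut their precursors and the 2 receptors that turn them into cyclic GMP. They were chosen by name: the rows of the deposited count table with the symbols Nppa, Nppb, Corin, Furin, Npr1 and Npr2. All 6 symbols were found among the 13192 genes of the table, each once, and all 6 stayed in the test, since 0 genes were removed for low counts.

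RNA was sequenced from the apex of the heart of male, wild-type C57BL/6J mice. Both groups had received 1e+11 particles of adeno-associated virus (AAV) in the right gastrocnemius, a calf muscle, at 10 weeks of age, and hearts were taken 12 weeks later. AAV-Osm (5 libraries) was the vector named for oncostatin M, a cytokine of the interleukin-6 family, and AAV-Null (4 libraries) was the control vector, so the injection and the virus were common to both. The promoter that drives the insert is not given in the sources used here, and Osm itself has 0 rows in the table and was not analysed here, so the labels could not be checked against the delivered gene.

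Cardiac muscle cells make the peptides ANP and BNP as longer precursors, encoded by Nppa and Nppb. Corin, a protease on the cell surface, cuts pro-ANP, and furin, a protease of the secretory pathway, cuts pro-BNP and many other precursors. The circulating peptides bind the receptor of Npr1, whose inner part makes cyclic GMP, which relaxes vessels and makes the kidney excrete salt; Npr2 encodes the related receptor that answers C-type natriuretic peptide, and Npr3 encodes a receptor that takes the peptides out of circulation. Nppa is abundant in atria and, after birth, low in the working muscle of ventricles, and both peptide genes are known to rise in ventricles under load.

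Nppb and Nppa lie side by side on chromosome 4 of build mm10, on the plus strand, at chr4:147985788-147987205 and chr4:148000746-148002067, with 13540 bases between them. The sequences before their RefSeq starts are shown because the group means of these neighbours, which the same cardiac transcription factors are known to bind, differed with opposite signs. Neither difference passed the test given below, and no link of sequence to level was tested. The sequences are RefSeq's, on GRCm38.p6, plus strand, 5′ to 3′. The Nppa stretch covers chr4:148000472-148000721, the 250 bases before the start, and the Nppb stretch covers chr4:147985794-147985823, bases -106 to -77 counted from the RefSeq start. RefSeq's Nppb start lies 112 bases downstream of the start in the deposited table, so the Nppb stretch is inside the gene as that table draws it; RefSeq's Nppa start lies 24 bases upstream of the table's. Capitals mark the letters of 4 motifs on either strand: GATA (GATA factors), AAGTG (NKX2-5), GGTGTGA (T-box factors) and CATTCC (the MCAT box of TEAD factors).
Nppa: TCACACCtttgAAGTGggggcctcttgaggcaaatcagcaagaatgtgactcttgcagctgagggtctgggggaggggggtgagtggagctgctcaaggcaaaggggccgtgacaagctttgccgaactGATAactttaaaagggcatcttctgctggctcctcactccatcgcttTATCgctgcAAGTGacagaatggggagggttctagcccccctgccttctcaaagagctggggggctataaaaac
Nppb: aGGAATGcagctGATAaatcagaGATAacc

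The Nppa window held the T-box letters at -250 to -244, the NKX2-5 letters at -239 and -65, and GATA at -121 (plus strand) and -74 (minus strand). The Nppb window held the MCAT letters at -105 to -100, on the minus strand, and GATA at -94 and -83. The 2 windows had GATA in common, and the other marked motifs were each found before a single peptide gene. Short motifs are common: of 32851 windows of 250 bases in the RefSeq table, 53.6% held GATA, 40.7% AAGTG, 12.6% CATTCC and 3.33% GGTGTGA. The STAT element TTCNNNGAA, bound by factors that cytokines of the interleukin-6 family activate, was in 7.02% of all windows and had 0 matches in the windows of the 6 genes, as had the CArG box (1.47% of all windows). TATAAA, found in 12.4% of all windows, stood at -9 before Nppa and at -31 before Nppb. Of the other genes, Furin's first start had 4 AAGTG and 1 GATA, while the windows of Corin, Npr1, Npr2 and the second start of Furin had 0 matches to any of the 7 motifs. A match to these letters is a description of the sequence, not a binding site.

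**Figure D1:**
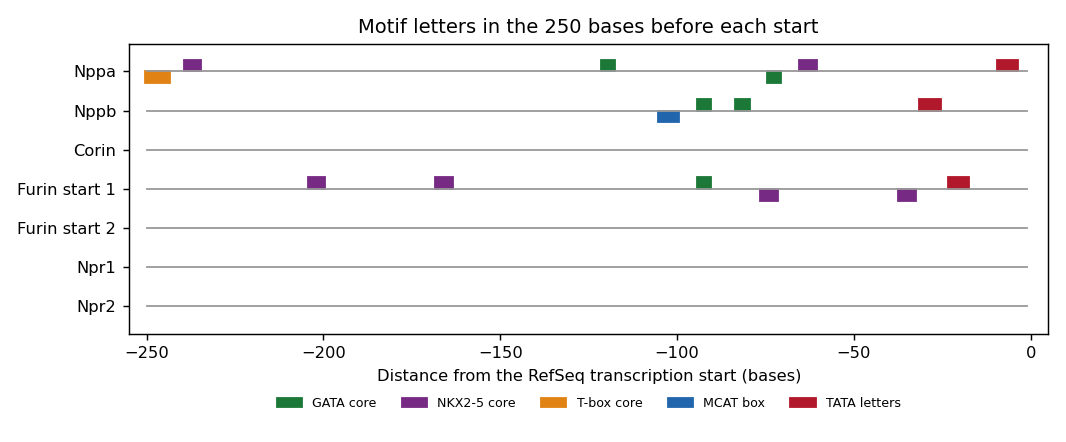
Motif matches in the 7 windows of 250 bases before the RefSeq starts of the 6 genes. The x axis is the distance from the start in bases, each line is a window and each coloured block a match on either strand; matches stand before Nppa, Nppb and the first start of Furin, and the other 4 windows hold 0.

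Values are given as CPM, each count divided by its library's total and put on a common scale with edgeR's TMM factors. A positive log2 fold change means a higher level in AAV-Osm. Total counts per library ran from 11841106 to 30625134, and the lowest count of any of the 6 genes in any library was 395 (Npr1), for which counting alone gives an error of 5.03%. Ventricular muscle genes, the defining markers of the labelled apex, were abundant in both groups: the summed CPM of 11 markers, led by Myl2 and Tnnt2, ran from 78788 to 103618 in the AAV-Null libraries and from 78624 to 105167 in the AAV-Osm libraries. The atrial markers Sln and Bmp10 were not among the genes tested, and Myl7 was at 0.24 to 11.1 CPM. In a piece of tissue, fewer cells of a type and less RNA per cell cannot be told apart. Library AAV-Null 4 stood apart from the other AAV-Null libraries in several of the values below, so results that rest on it are given with and without it.

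None of the 6 genes passed the threshold between the groups (edgeR, Benjamini-Hochberg adjusted p under 0.05 over all genes). For comparison, 16 of 13192 genes, or 0.121%, passed, 0.0834% as higher and 0.0379% as lower in AAV-Osm. At an unadjusted p under 0.05 the count among the 6 was also 0 in edgeR, where 5.97% of all genes were past that level. It was 1 (Nppb, unadjusted p = 0.0448, adjusted p = 0.773) in DESeq2, where the share of all genes at that unadjusted level was not computed. After adjustment, DESeq2 called 0 of the 6 and 0.387% of all genes. Limma-voom called 0 of the 6 and 0.0985% of all genes. The 2 groups overlapped in all 6 genes, and they did not overlap in 2.28% of all genes. The estimates were largest for the ligands: the log2 fold change was -0.67 for Nppb and 0.34 for Nppa, while the receptors and proteases lay between -0.18 and 0.29.

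**Figure D2:**
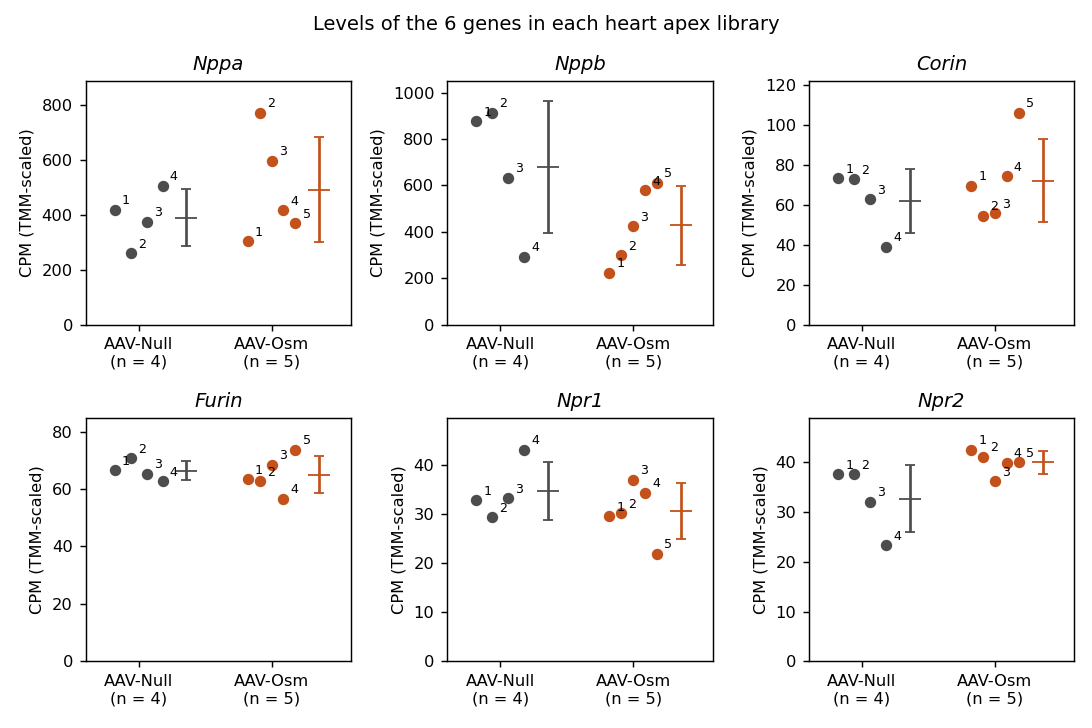
CPM of the 6 genes in each library, with the group mean and SD (4 AAV-Null and 5 AAV-Osm libraries); each panel is a gene and each number a library. The groups overlap in every panel, Nppa and Nppb spread most, and AAV-Null 4 has the lowest Nppb, Corin and Npr2 of its group and the highest Npr1.

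Of the ligands, Nppa, the ANP gene, was at 418, 259, 374 and 505 CPM in AAV-Null 1 to 4. It was at 304, 770, 596, 416 and 369 CPM in AAV-Osm 1 to 5. AAV-Osm 2 and 3 were above every AAV-Null library, while AAV-Osm 1, 4 and 5 lay within the AAV-Null range. The means were 389 ± 102 (SD, n = 4) and 491 ± 190 (SD, n = 5). The log2 fold change was 0.34 ± 0.26 (SE), with a 95% interval of -0.24 to 0.91 (edgeR adjusted p = 0.936), and an exact two-sided permutation test of log2 CPM over the 126 regroupings gave p = 0.429. The difference was thus smaller than the spread between libraries, and the interval reached from a fold of 0.85 to one of 1.88.

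Nppb, the BNP gene, was at 877, 913, 634 and 293 CPM in AAV-Null 1 to 4. In AAV-Osm 1 to 5 it was at 224, 300.4, 425, 579 and 611 CPM. The 3 highest libraries were AAV-Null 1, 2 and 3, while AAV-Null 4 lay below all AAV-Osm libraries but AAV-Osm 1. The means were 679 ± 285 (SD, n = 4) and 428 ± 169 (SD, n = 5), 1.59-fold higher in AAV-Null. The log2 fold change was -0.67 ± 0.34 (SE), with a 95% interval of -1.39 to 0.06 (edgeR p = 0.0682, adjusted p = 0.873), and the exact two-sided permutation p was 0.175.

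That Nppb estimate depended on AAV-Null 4. Without it, the AAV-Null mean was 808 ± 152 CPM (SD, n = 3), and every AAV-Osm library was below every AAV-Null library. AAV-Null 4 was the only AAV-Null library inside the AAV-Osm range, so leaving it out was bound to part the groups. The share of all genes so parted without AAV-Null 4 was not computed. The log2 fold change of Nppb without AAV-Null 4 was -0.92 ± 0.28 (SE), with an unadjusted edgeR p of 0.00587. Its adjusted p was 0.630, which still did not pass. Limma-voom with sample quality weights, which gave AAV-Null 4 the lowest weight of all libraries (0.347, against 3.37 for AAV-Null 2), put Nppb past the threshold at -1.15 (adjusted p = 0.0371). That fit called 170 genes in all, 1.29% of those tested, and Nppb was the only one of the 6 that it called.

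**Figure D3:**
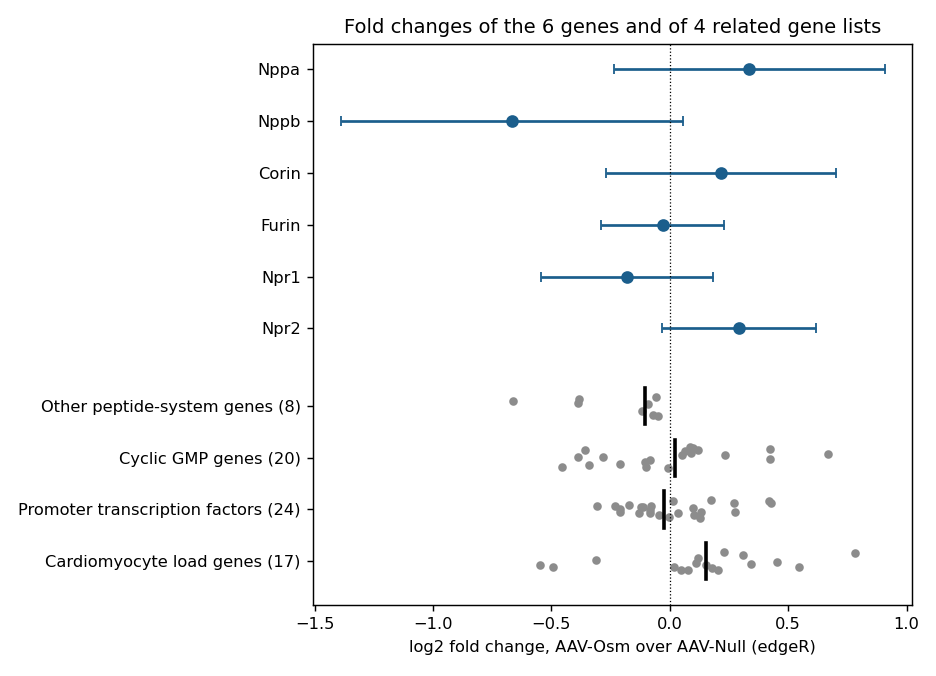
Log2 fold change (AAV-Osm over AAV-Null) of the 6 genes, with 95% intervals from edgeR. Below them, dots without intervals show other peptide-system genes, cyclic GMP genes, promoter transcription factors and cardiomyocyte load genes. A bar marks the median of each list. Every interval of the 6 genes crosses 0; that of Nppb runs from -1.39 to 0.06 and that of Furin, the narrowest, from -0.29 to 0.23.

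Both peptide genes varied widely within the groups. The pooled within-group SD of log2 CPM was 0.68 for Nppb and 0.49 for Nppa, against a median of 0.24 over the 1321 genes with a mean of 100 CPM or more. Of those 1321 genes, 7 had a larger SD than Nppb and 53 a larger SD than Nppa. The highest library was 4.08-fold above the lowest for Nppb and 2.97-fold for Nppa, where the median gene of that abundance differed by 1.64-fold. The lowest counts of the 2 genes were 5513 and 4781, for which counting alone gives errors of 1.35% and 1.45%.

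The 2 peptides did not follow each other across libraries. Over the 9 libraries, Pearson's r of their log2 CPM was -0.41 (exact permutation p = 0.271, adjusted over 15 pairs of genes p = 0.498) and Spearman's rho was -0.37 (exact permutation p = 0.336, adjusted p = 0.459). Without AAV-Null 2 and AAV-Osm 2, the libraries farthest from the Nppa median, r was 0.07, and r of the deviations from the group means was -0.31. Leaving out AAV-Osm 1 alone, the library with the lowest Nppb and a low Nppa, gave r = -0.83 (exact permutation p = 0.0105). The correlation therefore depended on single libraries.

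Per kb of exon, which puts the 2 genes on a common scale, the ratio of Nppa to Nppb was 0.449, 0.267, 0.556 and 1.62 in AAV-Null 1 to 4. It was 1.28, 2.42, 1.32, 0.677 and 0.569 in AAV-Osm 1 to 5. Nppb was thus the more abundant transcript in AAV-Null 1, 2 and 3 and in AAV-Osm 4 and 5, and Nppa in the rest. This ratio was chosen after the values had been seen. The log2 ratio was 0.93 higher in AAV-Osm (exact two-sided permutation p = 0.190), and 1.43 higher without AAV-Null 4. AAV-Null 4 was the only AAV-Null library inside the AAV-Osm range, so leaving it out was bound to part the groups. The exact permutation p of that subset was 0.0357, the smallest that 3 against 5 libraries can give. It followed from the library left out, and no conclusion is drawn from it. The 2 genes summed to between 799 and 1295 CPM in AAV-Null and between 528 and 1071 in AAV-Osm, and its log2 difference was -0.24 (exact permutation p = 0.460).

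**Figure D4:**
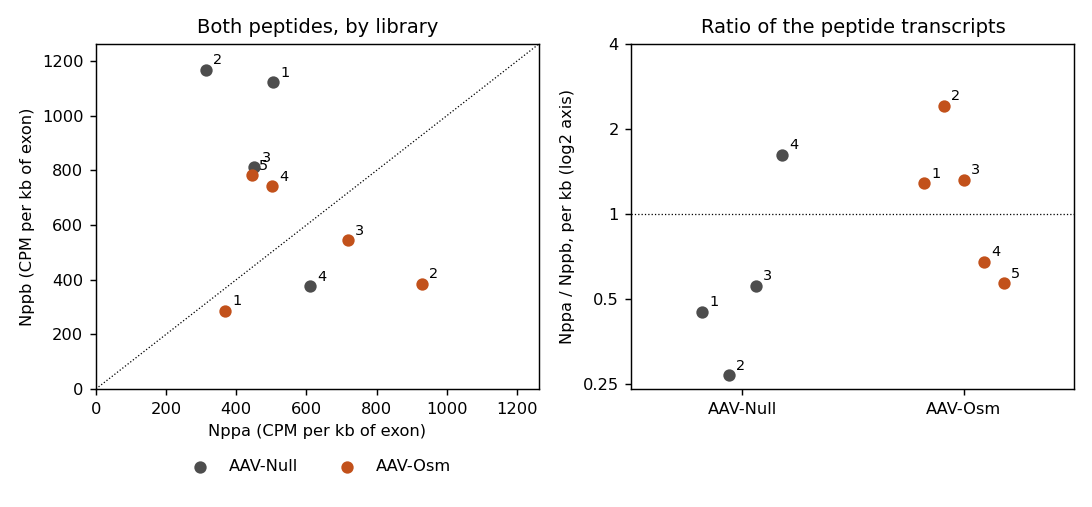
Left, Nppb against Nppa in each library, in CPM per kb of exon, with the line of equal level; right, the ratio of Nppa to Nppb on a log2 axis. AAV-Null 1 to 3 have ratios of 0.267 to 0.556, AAV-Null 4 is at 1.62, and the AAV-Osm libraries run from 0.569 to 2.42.

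The genes next to the pair in the table were looked at for a change over the wider region. Upstream of Nppb, 2510039O18Rik (chr4:147940895-147947314) was at 32.2 ± 7.67 CPM (SD, n = 4) in AAV-Null and 29.5 ± 6.25 (SD, n = 5) in AAV-Osm, with an edgeR adjusted p of 0.976. Downstream of Nppa, Clcn6 (chr4:148006484-148038767, minus strand), a chloride transporter gene, was at 3.10 ± 0.612 (SD, n = 4) and 3.62 ± 0.394 CPM (SD, n = 5), with an edgeR adjusted p of 0.947. Neither neighbour passed. An antisense gene, Gm13054, shares 532 of the 865 exon bases of Nppa in GENCODE's annotation, or 61.5%. The strand setting of the counting is not given in the sources used here, so reads of Nppa and of this antisense gene cannot be told apart.

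Of the processing proteases, Corin (chr5:72300025-72504540, minus strand) was at 73.5, 73.0, 63.0 and 39.2 CPM in AAV-Null 1 to 4. In AAV-Osm 1 to 5 it was at 69.7, 54.7, 56.0, 74.5 and 106 CPM. The lowest value was in AAV-Null 4 and the highest in AAV-Osm 5, and the other 7 libraries lay between 54.7 and 74.5, with the groups mixed. For Corin the log2 fold change was 0.22 ± 0.22 (SE), with a 95% interval of -0.27 to 0.70 (edgeR adjusted p = 0.955, exact permutation p = 0.476). It was 0.05 without AAV-Null 4 and -0.13 without AAV-Null 4 and AAV-Osm 5, so even its direction rested on those libraries.

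Furin (chr7:80389194-80405436, minus strand) was the steadiest of the 6 genes. It was at 66.6, 70.6, 65.3 and 62.8 CPM in AAV-Null 1 to 4 and at 63.4, 62.7, 68.4, 56.7 and 73.7 CPM in AAV-Osm 1 to 5. The AAV-Null values all lay inside the AAV-Osm range. Its pooled SD of log2 CPM was 0.12, and the highest library was 1.30-fold above the lowest. For Furin the log2 fold change was -0.03 ± 0.12 (SE), with a 95% interval of -0.29 to 0.23 (edgeR adjusted p = 0.989, exact permutation p = 0.667). That interval spans folds of 0.82 to 1.17, the narrowest range among the 6 genes.

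Of the receptors, Npr1 (chr3:90450592-90465866, minus strand), the receptor gene of ANP and BNP, was at 32.9, 29.4, 33.2 and 43.2 CPM in AAV-Null 1 to 4. It was at 29.6, 30.2, 37.0, 34.4 and 21.9 CPM in AAV-Osm 1 to 5. AAV-Null 4 was the highest library and AAV-Osm 5 the lowest, and the other 7 lay between 29.4 and 37.0. The log2 fold change was -0.18 ± 0.17 (SE), with a 95% interval of -0.54 to 0.18 (edgeR adjusted p = 0.950, exact permutation p = 0.413). Without AAV-Null 4 it was -0.06, and without AAV-Null 4 and AAV-Osm 5 it was 0.04.

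Npr2 (chr4:43631935-43651240), the receptor gene of C-type natriuretic peptide, was at 37.6, 37.7, 32.1 and 23.3 CPM in AAV-Null 1 to 4. In AAV-Osm 1 to 5 it was at 42.6, 41.1, 36.3, 40.0 and 40.0 CPM. AAV-Osm 1, 2, 4 and 5 were above every AAV-Null library, and AAV-Osm 3 lay below AAV-Null 1 and 2. The means were 32.7 ± 6.77 (SD, n = 4) and 40.0 ± 2.34 (SD, n = 5). The log2 fold change was 0.29 ± 0.15 (SE), with a 95% interval of -0.03 to 0.62 (edgeR p = 0.0756, adjusted p = 0.883), and the exact two-sided permutation p was 0.0476. That was the lowest of the 6 such tests and is not adjusted for their number. Without AAV-Null 4 the log2 fold change was 0.16 (edgeR adjusted p = 0.975).

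The balance of the 2 receptors, per kb of exon, also turned on AAV-Null 4. The ratio of Npr1 to Npr2 was 0.702 to 1.67 in AAV-Null, where only AAV-Null 4 was above 1, and 0.493 to 0.918 in AAV-Osm. The log2 difference between the group means, AAV-Osm minus AAV-Null, was -0.50 (exact permutation p = 0.127), and -0.24 without AAV-Null 4 (exact permutation p = 0.286). This ratio and the next were chosen after the values had been seen. The ratio of Corin to Furin was 0.552 to 0.976 in AAV-Null and 0.724 to 1.28 in AAV-Osm, with a log2 difference of 0.25 (exact permutation p = 0.333), and of 0.069 without AAV-Null 4 (exact permutation p = 0.75). Antisense genes share exon bases with Npr1 (11.7%), Npr2 (5.7%), Corin (2.72%) and Furin (1.29%), and the same limit on strand holds for them.

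Compared per kb of exon over all 9 libraries, the ligands stood far above the rest. The mean level was 691 ± 320 CPM per kb (SD, n = 9) for Nppb and 538 ± 190 for Nppa, and Nppa was below Nppb in 5 of 9 libraries, so these 2 are not ordered beyond their spread. Furin followed at 14.7 ± 1.13 and Corin at 13.5 ± 3.68, below Furin in 7 of 9 libraries, again within Corin's spread. Npr2 was at 10.1 ± 1.61 and below Corin in 8 of 9 libraries. Npr1 was lowest at 7.98 ± 1.44, and below Npr2 in 8 of 9, the exception being AAV-Null 4. The lowest Nppb level, 286 CPM per kb, was above the highest Corin level of 21.1, so the gap between ligands and proteases held in every library.

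Across pairs of the 6 genes, no correlation over the 9 libraries passed after adjustment over the 15 pairs. The strongest was Corin with Npr1, at r = -0.86 (exact permutation p = 0.00868, adjusted p = 0.130) and rho = -0.55 (exact permutation p = 0.133, adjusted p = 0.369). Without AAV-Null 4 and AAV-Osm 5, the 2 libraries at the ends of the Corin range, r was -0.24, so that relation rested on them. Npr1 with Npr2 had rho = -0.70 (exact permutation p = 0.043, adjusted p = 0.369) and r = -0.69 (exact permutation p = 0.0714, adjusted p = 0.357), and r = -0.47 without the same 2 libraries.

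The genes whose log2 CPM ran most like each of the 6 were taken from the 12196 genes with a mean of 1 CPM or more, by Pearson's r over the 9 libraries, which share depth and composition. For Nppa they were Mvp (r = 0.95), the major vault protein gene, Ndrg2 (0.93) and Hsf4 (0.93), a heat shock factor gene. For Nppb they were Ankrd23 (0.98), a muscle ankyrin repeat gene, Blcap (0.97) and Adam19 (0.97), a membrane protease gene. Corin was followed by Jak2 (0.98), the kinase gene of many cytokine receptors, Sf3b1 (0.98), a splicing factor gene, and Tfb2m (0.98), a mitochondrial transcription factor gene. Furin was followed by Scly (0.98), Lrp5 (0.93), a Wnt co-receptor gene, and Rhbdl3 (0.92). Npr1 was followed by Flna (0.98), the filamin A gene, Gtf3c5 (0.98) and Tbl1x (0.96). Npr2 was followed by Mir22hg (0.96), the host gene of a microRNA, Vldlr (0.96), a lipoprotein receptor gene, and Plp2 (0.96). The 6 genes had no such partner in common.

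The other genes of the peptide system showed the same lack of calls. Of 10 listed ligands, receptors and proteases, 8 were tested, Nppc and Ostn were not analysed here, and 0 passed in either direction. All 8 estimates were below 0, with a median log2 fold change of -0.10, against 0.01 over all genes, of which 48.1% were below 0. Not all of the 8 stayed below 0 when single libraries were left out, as given below. The clearance receptor gene Npr3 was at 23.8, 15.5, 21.7 and 49.3 CPM in AAV-Null 1 to 4 and at 15.4 to 28.7 CPM in AAV-Osm. Its log2 fold change was -0.39 (edgeR adjusted p = 0.934) with AAV-Null 4 and 0.05 without it. Dpp4, a peptidase gene, was the only one of the 8 at an unadjusted p under 0.05, with 5.21 ± 1.56 CPM (SD, n = 4) against 3.27 ± 0.678 (SD, n = 5) and an edgeR adjusted p of 0.622. Its log2 fold change was -0.66, and -0.43 without AAV-Null 4, which held 7.53 CPM against 4.24 to 4.70 in the other AAV-Null libraries; 0 of the 8 were then at an unadjusted p under 0.05. Ece1, Ide and Pcsk6, the most abundant, had log2 fold changes of -0.09, -0.06 and -0.07. With a library left out these ran from -0.19 to 0.17, from -0.22 to 0.28 and from -0.16 to 0.038. Ece1 was at 147 CPM in AAV-Null 4, against 76.8 to 86.2 in the other AAV-Null libraries.

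In AAV-Null 4 the summed markers of several other cell types were also high, while other sums were low. The summed CPM of 6 endocardial markers, of which Npr3 is one, was 217 in AAV-Null 4 and 82.4 to 134 in the other 8 libraries. The summed macrophage markers were at 920, against 428 to 645, and the fibroblast markers at 2324, against 1104 to 1909. None of the markers of these 3 lists was at 0 in any library. Endothelial markers summed to 1635 CPM in AAV-Null 4, against 1151 to 1436 in the rest. Liver-type markers summed to 236 CPM there and to 290 in AAV-Null 3, against 52.2 to 143 in the other 7 libraries. Smooth muscle and pericyte markers summed to 298 CPM in AAV-Null 4, against 333 to 457 in the rest. Skeletal muscle markers summed to 201 CPM there, against 247 to 692. Ventricular marker sums in AAV-Null 4 (103618) lay within the range of the AAV-Osm libraries. Single markers did not always follow their sum: Tcf21, Lum, Cdh5, Tek and Nfatc1 were lowest of the AAV-Null group in AAV-Null 4. Of the smooth muscle and pericyte list, Kcnj8 (58.1 CPM) and Rgs5 (51.1 CPM) were highest of that group there, and the other markers were lowest. Whether the tissue taken has a part in the low Nppb, Corin and Npr2 and the high Npr1 of AAV-Null 4 was not tested.

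**Figure D5:**
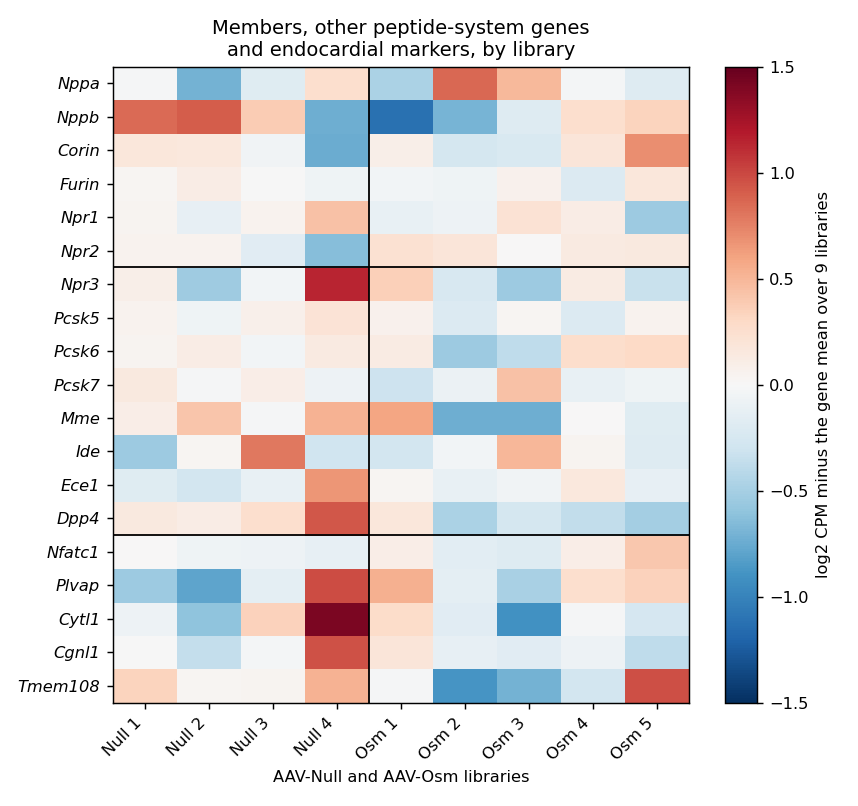
Log2 CPM of each gene minus its mean over the 9 libraries, for the 6 genes (top), the other genes of the peptide system (middle) and the endocardial markers (bottom). AAV-Null 4 is low in Nppb, Corin and Npr2 and high in Npr1, Npr3, Ece1, Dpp4, Plvap, Cytl1 and Cgnl1.

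Downstream of the receptors, 20 of 21 listed genes of cyclic GMP synthesis, breakdown and action were tested, Trpc6 was not analysed here, and 0 passed in either direction. Their median log2 fold change was 0.02, with 10 above and 10 below 0. The most abundant, Pln, which encodes the brake of the calcium pump, was at 3255 ± 530 CPM (SD, n = 4) in AAV-Null and 3455 ± 908 (SD, n = 5) in AAV-Osm. Ppp1r12a, a myosin phosphatase subunit gene, and Pde1c, a phosphodiesterase gene, had log2 fold changes of -0.08 and 0.09. Vasp, which encodes a substrate of the kinase that cyclic GMP activates, ranged between 37.8 and 41.3 CPM in AAV-Null libraries and between 28.1 and 34.6 in AAV-Osm libraries, and it was the only gene of the list whose groups did not overlap, where AAV-Osm was below AAV-Null in every library for 1.23% of all genes. Its log2 fold change was -0.34 ± 0.12 (SE; edgeR adjusted p = 0.644, with an unadjusted p under 0.05). Rgs2, an inhibitor of G protein signals that this kinase acts on, was at 22.9 ± 11.7 CPM (SD, n = 4) and 36.5 ± 5.09 CPM (SD, n = 5), with a log2 fold change of 0.67 (edgeR adjusted p = 0.773). Without AAV-Null 3 and 4, left out for their liver-type RNA, it was 1.42 and passed (edgeR adjusted p = 0.0171), as did 0.121% of the genes tested there. Those 2 libraries also had the highest Rgs2 of their group, 37.9 and 26.4 CPM against 12.7 and 14.5. The AAV-Null libraries left in that fit, 1 and 2, differed least of all pairs of libraries. The labels do not state that they are separate mice.

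Of 26 listed transcription factors known at the peptide promoters, 24 were tested and 0 passed, with a median log2 fold change of -0.02 and 13 estimates below 0. Srf, Gata4 and Mef2a, the most abundant, had log2 fold changes of -0.21, -0.08 and -0.08 (edgeR adjusted p = 0.927, 0.981 and 0.984). Nfatc2, a factor that calcineurin activates, was the only one at an unadjusted p under 0.05, at 11.1 ± 1.34 CPM (SD, n = 4) and 14.9 ± 1.34 CPM (SD, n = 5; edgeR adjusted p = 0.620).

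All 17 listed muscle genes linked to load were tested and 0 passed. The list was not split by the direction in which each gene is known to move. The median log2 fold change was 0.15, and 14 estimates were above 0 and 3 below, where 48.1% of all genes were below 0. The slow myosin gene Myh7 was at 123, 78.4, 111 and 79.1 CPM in AAV-Null 1 to 4 and at 53.6, 193, 267, 172 and 154 CPM in AAV-Osm 1 to 5. AAV-Osm 1 was the lowest of all libraries, and the other 4 AAV-Osm libraries were above every AAV-Null library. Its log2 fold change was 0.78 ± 0.33 (SE; edgeR adjusted p = 0.796, with an unadjusted p under 0.05). AAV-Osm 1 was also the library with the lowest Nppb, and the lowest AAV-Osm library for Nppa and for Ankrd1, a stretch-responsive gene (1831 CPM, against 3336 to 3945 in the other AAV-Osm libraries). Mybpc2 (log2 fold change 0.54) and Nmrk2 (-0.49), at unadjusted p under 0.05, had edgeR adjusted p of 0.644 and 0.740. The abundant Myh6, Actc1 and Atp2a2 had log2 fold changes of 0.20, 0.18 and 0.23. The negative estimate of Nppb was shared by Tnfrsf12a (-0.55), Nmrk2 (-0.49) and Rcan1 (-0.31), while the other 14 genes of the list were above 0.

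Atrial muscle, the richest source of Nppa in the heart, was looked for by its markers. The atrial light chain gene Myl7 was at 2.9, 3.6, 4.1 and 11.1 CPM in AAV-Null 1 to 4 and at 0.24 to 3.1 CPM in AAV-Osm (log2 fold change -1.71, edgeR adjusted p = 0.552). Without AAV-Null 4 its log2 fold change was -1.11. AAV-Null 4 had the highest Myl7 and Myl4 (8.71 CPM) of all libraries and the highest Nppa of its group, while AAV-Osm 2, with the highest Nppa of all, had 1.0 CPM of Myl7. The part of atrial tissue in the Nppa levels was not tested. The summed CPM of the 10 atrial markers tested lay between 449 and 557 in AAV-Null and between 476 and 578 in AAV-Osm, mostly from Pam, which ventricular muscle also expresses. Conduction system markers, of cells that also keep Nppa after birth, summed to 59.4 to 76.1 and 65.1 to 78.7 CPM. Of 10 markers of skeletal muscle, the injected tissue, 6 were tested, and Myh1, Myh2, Myh4 and Pvalb were not analysed here. Acta1, which heart muscle also expresses, was at 192 to 687 CPM, Tnni2 at 1.40 to 2.66 CPM, and Actn3 reached 3.13 CPM in AAV-Null 4, against 0 to 0.954 in the other libraries.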

How the data were processed

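The data were RNA-seq counts of 9 mouse heart apex samples, 4 AAV-Null and 5 AAV-Osm; the fifth AAV-Null sample of the 5 submitted was not analysed here. Libraries of enriched mRNA were sequenced from both ends (75 bases), per the labels' protocols. The submitters' processing notes name mm10 as the build, STAR (2.5.2b), Subread (1.5.1) and featureCounts. No annotation or strand setting is named there. The authors deposited raw, unscaled counts for each gene. The 4141 blank lines of the table were left out.

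Counts were tested with edgeR 4.0.16 (R 4.3.3) by its two-sided quasi-likelihood F test after TMM scaling, with group as the only term and Benjamini-Hochberg adjustment over 13192 genes (threshold 0.05). SE and 95% intervals come from that fit. Log2 CPM used a prior count of 2. DESeq2 1.42.0, limma 3.58.1 (voom), other scalings and filters, and leaving out libraries were the alternatives. The fits were tested on simulated data. Exact permutation tests of group differences covered all regroupings of the libraries (126 for 4 against 5), and those of correlations all pairings. Levels between genes were compared per kb of the exon length in the deposited table. Promoter windows are from RefSeq (GRCm38.p6), overlaps from GENCODE's annotation of the same build.

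The genes and lists were chosen with earlier results of these data known. Genes named beyond the 6 are the 3 most abundant of each pathway list, the 3 most like each gene, the 2 neighbours on chromosome 4 and the most abundant markers. Npr3, Dpp4, Vasp, Rgs2, Nfatc2, Myh7, Mybpc2, Nmrk2, Ankrd1, Tnfrsf12a, Myl7, Myl4, Tnni2, Actn3, Plvap, Cytl1, Cgnl1 and Pam were named after their values were seen. So were Rcan1, Tcf21, Lum, Cdh5, Tek and Nfatc1. The labels do not state that each library is a separate mouse, and the spread behind the p-values may be technical. The smallest chi-square per degree of freedom between 2 libraries was 6.52, for AAV-Null 1 and 2. The next was 9.68, for AAV-Osm 2 and 3. As 0 pairs were identical, no library was dropped as a repeat. These values cannot show whether 2 libraries came from separate mice, yet the tests treat all libraries as independent. AAV-Null 1 and 2 had the highest quality weights (2.34 and 3.37). They were the only AAV-Null libraries in the fit without AAV-Null 3 and 4.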

Additional observations from a re-analysis of the deposited data

Results flagged for a closer look

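Among 44 values looked at in each of the 2 groups (88 tests), 4 had a library far from the rest of its group, where chance flags about 1 in 20 groups. None of the 6 genes of the report was among them. Pde1c, a phosphodiesterase gene, was at 34.9 CPM in AAV-Null 4 and at 53.4 to 54.6 in the other AAV-Null libraries. Clcn6, the neighbour of Nppa, was at 2.18 CPM in AAV-Null 2 and at 3.39 to 3.42 in the others of its group. Nfatc2 was at 13.1 CPM in AAV-Null 3 and at 10.2 to 10.5 in the others. Ankrd1 was at 1831 CPM in AAV-Osm 1, the library with the lowest Nppb, and at 3336 to 3945 in the other AAV-Osm libraries.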

How the results depend on the processing

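No paired analysis was possible because the labels give no replicate numbers and no pairing. The 16 genes past the threshold in edgeR became 51 in DESeq2, 170 in limma-voom with sample quality weights, 5 among genes with at least 10 CPM in 4 libraries, and 4 to 11 with a library left out, over 1.5 times fewer than 16 for every library but AAV-Null 3. Of the 6 genes, Nppb alone passed in any of these, at -1.15 with quality weights (adjusted p = 0.0371). Leaving out each library in turn gave log2 fold changes of 0.11 to 0.49 for Nppa, -0.92 to -0.49 for Nppb, 0.04 to 0.31 for Corin, -0.074 to 0.015 for Furin, -0.26 to -0.06 for Npr1 and 0.16 to 0.37 for Npr2, and none passed. Nppa was at 0.71 with quality weights (adjusted p = 0.113), and Npr2 at 0.088 without AAV-Null 3 and 4. The correlation of Nppa with Nppb ran from -0.83 to -0.21. Corin was at -0.14 with quality weights, -0.13 in the subset that leaves out AAV-Null 4 and AAV-Osm 5 and -0.019 in the subset that leaves out AAV-Null 3 and 4, and Npr1 was at 0.041 in the first of these subsets. In the same order of settings, other reversals were Ece1 at 0.14, 0.20 and 0.21, Pln at -0.16, -0.18 and -0.060, Pde1c at -0.043, -0.12 and -0.045, and Npr3 at 0.018, 0.11 and 0.10. Ide was at 0.0074 in limma-voom, 0.16 with quality weights and 0.26 without AAV-Null 3 and 4, and Actc1 at -0.015 with quality weights and -0.0093 in the first subset. With a library left out, ranges that crossed 0 were -0.19 to 0.17 for Ece1, -0.22 to 0.28 for Ide, -0.16 to 0.038 for Pcsk6, -0.071 to 0.18 for Pln, -0.21 to 0.020 for Ppp1r12a, -0.043 to 0.18 for Pde1c, -0.17 to 0.0090 for Gata4, -0.20 to 0.0058 for Mef2a and -0.58 to 0.051 for Npr3. Rgs2 (1.19) and Tnfrsf12a (-1.01) passed with quality weights. The cause of these changes was not tested. Clcn6 has no value under the filter of 10 CPM. With 4 and 5 libraries, the 95% interval of Nppb still spans folds of 0.38 to 1.04, while its counting error at the lowest count was 1.35%.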
